A study of Mus musculus with 24 samples.

Results

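Obstructed kidneys of mice given an early course of istradefylline were compared with obstructed kidneys given vehicle, 8 of the 24 libraries of the study, 4 in each group. The 8 libraries were taken by their labels, and all 12637 genes with at least 1 FPKM in at least 4 of these 8 libraries were compared. FPKM is the number of fragments on a gene scaled for transcript length and for library depth, and each change is given on the log2(FPKM + 1) scale, which understates the change of low genes. The study sequenced RNA of whole left kidneys from mice of the Wildtype genotype whose ureter was obstructed on 1 side (UUO) or not obstructed, in a sham operation, with vehicle or with the drug as an early or a late intervention, in 6 groups of 4 libraries. Both groups compared here had UUO surgery and no other allele or agent is labelled, so they differ by the early intervention in place of vehicle. The labels give no dose, no days of treatment, no sex or age and no hour of collection. Whether each library is a separate mouse is not stated either, so a p-value here measures the spread among libraries of a group, which may be technical.

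When a ureter is tied off, urine backs up, tubule cells are damaged, leukocytes enter and scar matrix accumulates, so the model is widely used for tubular injury and fibrosis. Istradefylline blocks the adenosine receptor encoded by Adora2a, which raises cyclic AMP in the cells that carry it. Adenosine is made from ATP released by injured cells, and it acts on leukocytes, vessels and tubules. In brain, this receptor also takes part in sleep and wakefulness, and the kidney has its own molecular clock, a loop in which ARNTL and CLOCK switch on the Per and Cry genes, whose proteins then repress them.

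Depth, estimated from the smallest steps of the transcript values, was 8400000 to 11500000 fragments per UUO early library and 9240000 to 10340000 per UUO vehicle library. No pair of libraries was identical. The fourth UUO early library (UUO early 4) stood apart. On the first principal component, with 38.3% of the variance over the 8 libraries, it lay at 62.3 while the other 7 lay between -20.8 and 1.65. Its median correlation across genes with the others was 0.905, against 0.952 to 0.968 for the other 7. In it 214 genes were at least 1 log2 unit above every other library of the comparison, against 3 to 25 genes in the others, and 230 were as far below, against 9 to 60. Results for most gene lists are given with and without it.

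Markers of other cell types moved with that library, as the plot of marker sums shows. The neutrophil list, of which 8 of 9 genes had values, summed to 1463 FPKM in UUO early 4. It summed to 52.1 to 60.5 FPKM in the other 3 UUO early libraries and to 23.7 to 110.7 FPKM with vehicle. S100a8 and S100a9, the calprotectin subunits that neutrophils carry in bulk, stood at 482 and 873 FPKM there, against at most 36.1 and 64.0 FPKM in the other 7. Muscle genes were high as well. The skeletal muscle list of 13 genes summed to 5058 FPKM in UUO early 4, to 103 and 236 FPKM in UUO early 1 and 2, to 4.44 FPKM in UUO early 3 and to 5.51 to 8.06 FPKM with vehicle. Acta1, skeletal muscle actin, stood at 1002 FPKM in UUO early 4, at 23.0 and 52.3 FPKM in UUO early 1 and 2, and at 0.966 FPKM in UUO early 3. The proximal tubule list of 33 genes went the other way in UUO early 4. It summed to 2260 FPKM there, to 6364 to 14107 FPKM in the other UUO early libraries and to 5164 to 11603 FPKM with vehicle. In bulk RNA, fewer cells of a type and less RNA per cell cannot be told apart.

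**Figure D1:**
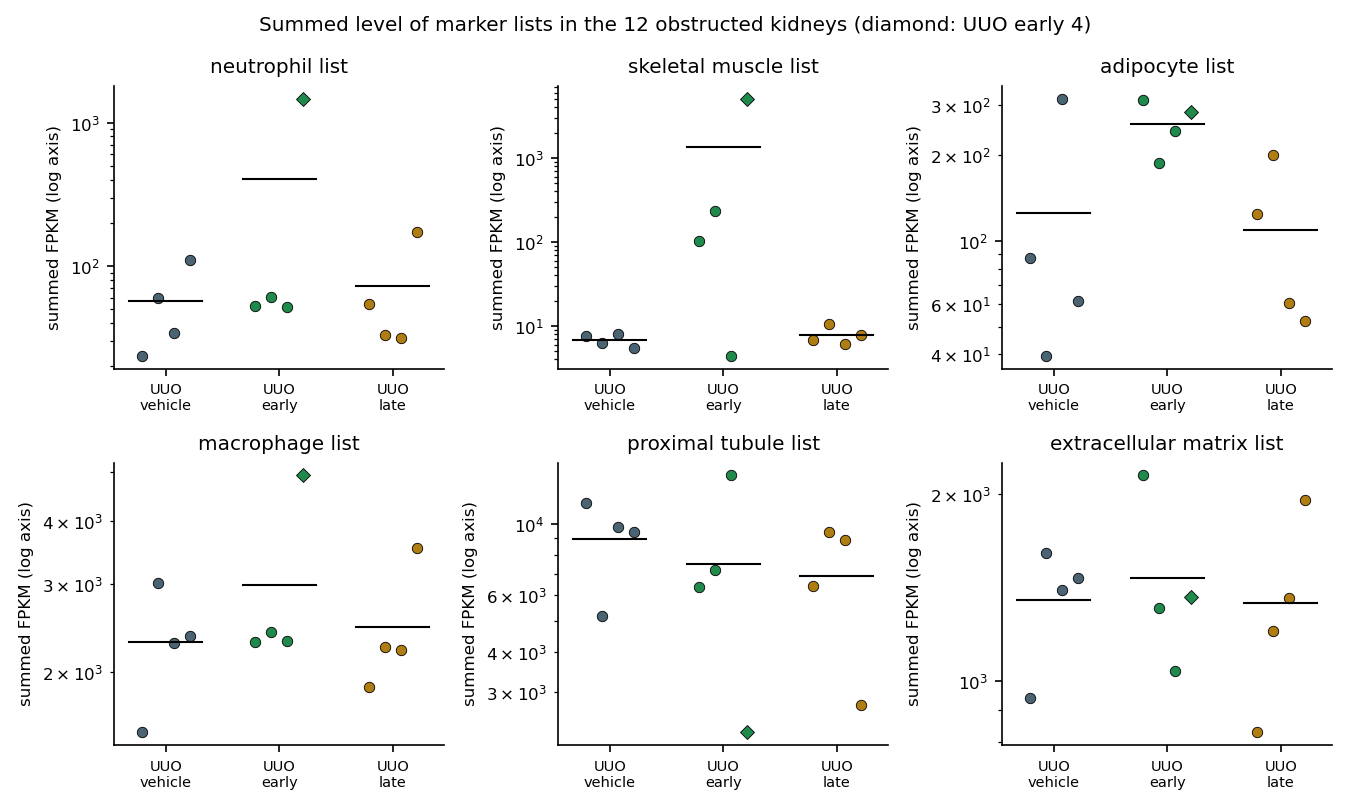
Summed FPKM of 6 marker lists (log axis) in the 4 libraries each of UUO vehicle, UUO early and UUO late, 1 point per library, with the arithmetic mean as a line and UUO early 4 as a diamond. UUO early 4 is highest for neutrophil (1463 FPKM), macrophage and muscle genes and lowest for proximal tubule genes (2260 FPKM), while adipocyte sums were 188 to 312 FPKM in UUO early and spread from 39.6 to 315 FPKM with vehicle.

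Few genes passed the test. By limma with Benjamini-Hochberg adjustment over all 12637 genes and a threshold of 0.05, 6 genes passed, which is 0.0475% of those tested, 3 of them higher with the early course (0.0237%) and 3 lower (0.0237%). At an unadjusted p under 0.05 there were 538 genes, 4.26% of those tested, with 2.47% higher and 1.79% lower. All 4 UUO early libraries lay above all 4 UUO vehicle libraries for 235 genes (1.86%) and below them for 176 genes (1.39%). The median 95% interval reached 0.35 log2 units to either side of its estimate, so small changes were not detectable with these libraries.

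The 3 genes that rose were Dsel, Pfkfb3 and Nsun4. Dsel (ENSMUSG00000038702.6, GRCm38 chr1:111858702-111864918) encodes an enzyme that makes dermatan sulfate, a sugar chain of matrix proteoglycans, by turning glucuronic into iduronic acid. It stood at 0.0599, 0.117, 0.0148 and 0.0402 FPKM in the 4 vehicle libraries and at 4.61, 3.00, 3.30 and 3.47 FPKM in the 4 early libraries, a log2 change of 2.11 (SE 0.12, adjusted p = 0.00121). The groups were far apart, with the vehicle libraries near 0. Pfkfb3 (ENSMUSG00000026773.19, chr2:11471433-11554077) encodes an enzyme whose product, fructose 2,6-bisphosphate, speeds up glycolysis. It stood at 0.195, 0.863, 0.912 and 0.325 FPKM with vehicle and at 3.28, 4.77, 3.90 and 5.29 FPKM with the early course, a log2 change of 1.77 (SE 0.20, adjusted p = 0.0358). Nsun4 (ENSMUSG00000028706.14, chr4:116032842-116053876) encodes a methyltransferase of mitochondrial ribosomal RNA. It stood at 0.676, 0.791, 1.08 and 0.460 FPKM with vehicle and at 3.99, 3.31, 3.72 and 2.57 FPKM with the early course, a log2 change of 1.33 (SE 0.15, adjusted p = 0.0358). The libraries of the groups did not touch for any of the 3, and all 3 are low genes. Dsel and Pfkfb3 were under 1 FPKM in every vehicle library and met the filter only through the early libraries. The filter itself thus sets their groups apart, and their lack of overlap is no support for a difference. Nsun4 reached 1 FPKM with vehicle only in UUO vehicle 3.

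The 3 genes that fell were Gpx1, Fbxl17 and Rlf. Gpx1 (ENSMUSG00000063856.7, chr9:108338903-108340343) encodes the most widespread glutathione peroxidase, a selenium enzyme that removes hydrogen peroxide, and it is one of the abundant RNAs of the kidney. It stood at 973, 760, 930 and 903 FPKM with vehicle and at 168, 201, 196 and 128 FPKM with the early course. That is a log2 change of -2.37 (SE 0.16, adjusted p = 0.00178), with all early libraries far below all vehicle libraries. Fbxl17 (ENSMUSG00000023965.13, chr17:63057452-63500017) encodes a substrate receptor of a ubiquitin ligase that clears wrongly paired BTB proteins. Its level was 5.61, 6.58, 5.93 and 6.87 FPKM with vehicle and 2.24, 2.61, 2.53 and 2.74 FPKM with the early course, a log2 change of -1.04 (SE 0.10, adjusted p = 0.0194). Rlf (ENSMUSG00000049878.13, chr4:121145373-121215084) encodes a zinc finger protein. It stood at 2.05, 2.58, 2.78 and 3.08 FPKM with vehicle and at 0.0785, 0.652, 0.0437 and 0.0568 FPKM with the early course, a log2 change of -1.61 (SE 0.18, adjusted p = 0.0358). The groups were apart for all 3, and UUO early 2 was the highest early library for Rlf. Rlf was under 1 FPKM in every early library and met the filter only through the vehicle libraries. Its lack of overlap is therefore no support for a difference.

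These calls differed in how far they rested on single libraries. Without UUO early 4, the 5 genes that passed (0.0396%) included Dsel, Gpx1, Fbxl17 and Nsun4, while Rlf (log2 change -1.55) and Pfkfb3 (1.68) had an adjusted p of 0.105. With the genes tested held fixed, Dsel and Gpx1 passed whichever of the 8 libraries was left out, Fbxl17 in 3 of the 8 cases, Pfkfb3 and Nsun4 in 2 and Rlf in 1. Otherwise Dsel and Pfkfb3 would leave the filter when an early library is removed, and Rlf when a vehicle library is. Their results in those cases rest on that choice. The spread assumed in the fit also mattered. With the UUO late libraries sharing the fit (12 libraries) 2 genes passed, Pfkfb3 and the zinc finger gene Zfp317, and with all 24 libraries in the fit 2 genes passed, Dsel and Pfkfb3.

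The plot of all 24 libraries shows the 6 genes in the other groups too, and each gene was split into a low and a high level. The split was put at the widest gap on the log2 scale among the 24 sorted values of the gene. Gaps that set off only the lowest or only the highest library were left aside. Such a gap can be found for any gene, and the split was set after the values were seen. Gpx1 lay above its gap (303 to 603 FPKM) in all 4 UUO vehicle libraries, in 3 of 4 UUO late, 2 of 4 sham vehicle and 2 of 4 sham late libraries, and in none of the UUO early or sham early libraries. In sham vehicle kidneys its values were 234, 797, 246 and 1050 FPKM, with no drug given. Nsun4 was at its high level in 3 of 4 sham vehicle libraries and Rlf in 3 of 4. Fbxl17 was at its high level in 2 of 4 libraries each of sham early, sham late and UUO late, and in none of sham vehicle. Dsel was at its high level only in UUO early (4 of 4) and UUO late (3 of 4) among the 6 groups, and the remaining UUO late library stood at 0.0271 FPKM. Pfkfb3 was high in 4 of 4 UUO early libraries and in 1 other of the 24, a sham vehicle library at 2.52 FPKM. Of all genes tested, 201 (1.59%) had a gap of at least 1 log2 unit that took at least 0.5 of their range over the 12 UUO libraries, and 2 of the 6 called genes did.

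**Figure D2:**
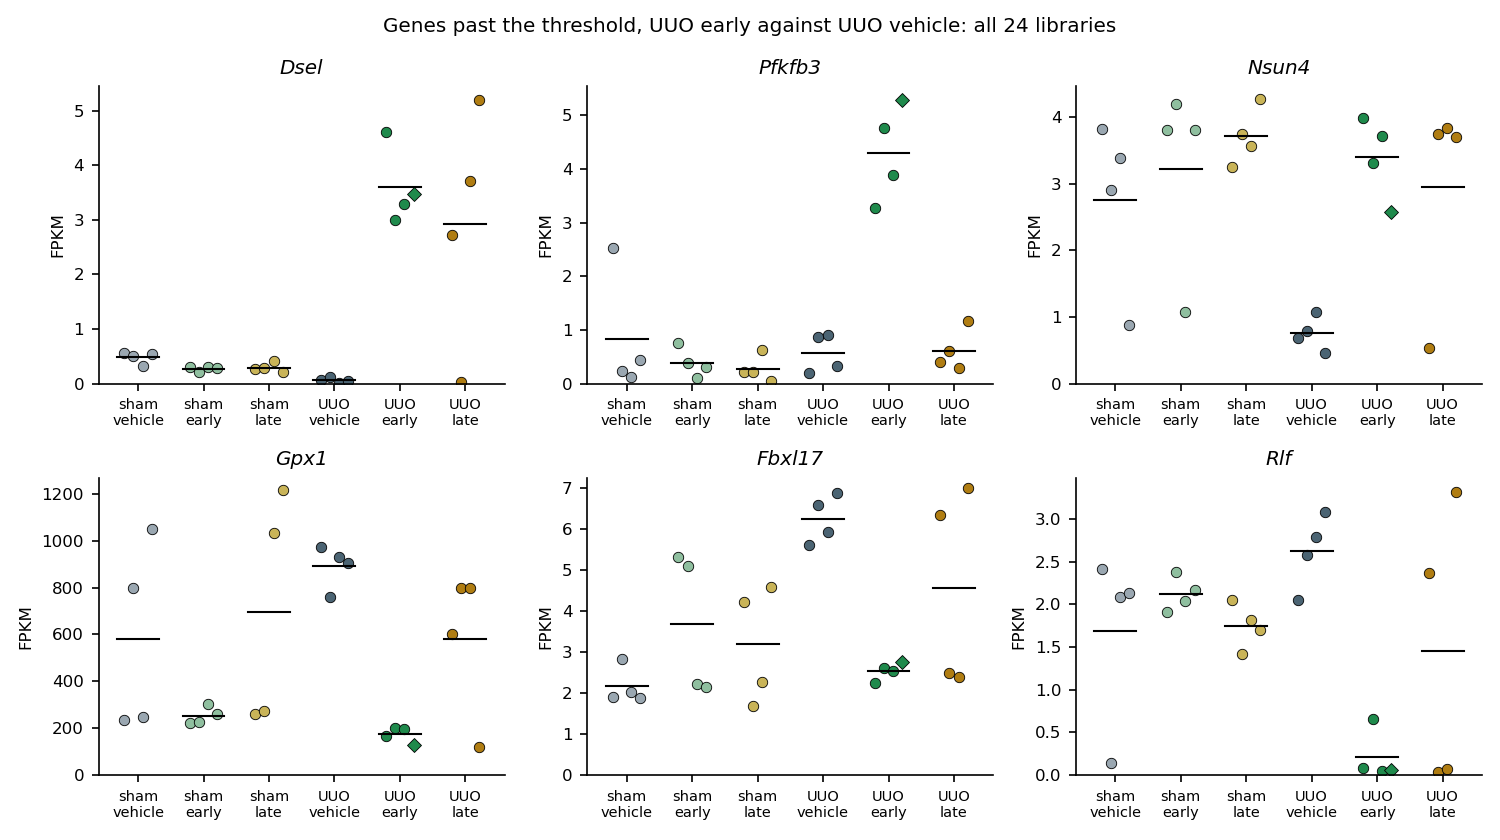
FPKM of the 6 genes past the threshold in all 24 libraries, 4 per group, with the group mean as a line and UUO early 4 as a diamond. UUO early and UUO vehicle libraries do not overlap in any panel, and sham vehicle or UUO late libraries lie at both levels for all 6 genes.

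The transcript table gave a second view of the same reads. Of 17558 transcripts tested, 12 passed the threshold (0.0683%), 8 higher (0.0456%) and 4 lower (0.0228%) with the early course. They include exchanges between transcripts of 1 gene. Gtf3c4 encodes a subunit of the RNA polymerase III factor TFIIIC. Its transcript Gtf3c4-204 stood at 4.47 to 5.73 FPKM in the vehicle libraries and at most at 0.00711 FPKM in the early libraries (log2 change -2.62, SE 0.15, adjusted p = 0.00122), while Gtf3c4-201 was listed at 0 in every vehicle library and at 4.65 to 6.26 FPKM in every early library (log2 change 2.69, SE 0.16, adjusted p = 0.00122). The gene as a whole stood at 4.41 to 5.65 FPKM with vehicle and 4.46 to 6.02 FPKM with the early course, a log2 change of 0.03 (SE 0.12, adjusted p = 0.978). Arel1-201, from a ubiquitin ligase gene, went from at most 0.0996 FPKM to 5.83 to 8.71 FPKM (log2 change 2.92, adjusted p = 0.00122) beside a change of 0.00 (SE 0.10) for the gene. No other Arel1 transcript was listed, so no exchange is shown for it, although the gene stood at 6.13 to 7.53 FPKM with vehicle. Fip1l1-201, from the gene of a polyadenylation factor, went from 2.25 to 2.98 FPKM up to 7.64 to 9.96 FPKM (log2 change 1.40, adjusted p = 0.0224), beside a log2 change of 0.04 (SE 0.12) for the gene. So for Gtf3c4, Arel1 and Fip1l1 the transcript differed between the groups while the interval of the gene total lay around 0. Both Gtf3c4 transcripts and Arel1-201 were under 1 FPKM in every library of 1 group and met the filter only through the other group. The filter itself thus sets their groups apart, and their lack of overlap is no support for a difference. Libraries of other groups were also at either level. Arel1-201 stood at 4.96, 5.62, 0.0380 and 3.97 FPKM in sham vehicle libraries, with no drug given, and Gtf3c4-201 was listed at 0 in 3 sham vehicle libraries and at 2.69 FPKM in the fourth.

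Gpx1, Dsel and 5 other genes also had a called transcript. Nsun4, Pfkfb3, Rlf and Fbxl17, called as genes, had none. Nsun4-202, Pfkfb3-206 and Rlf-203 were without overlap but did not pass (limma, adjusted p = 0.067 for each). Fbxl17-201 overlapped between the groups (log2 change -0.88, adjusted p = 0.957). Fbxl17-204 was listed at 7.33 FPKM in UUO vehicle 2, at 2.26 FPKM in UUO early 2 and at 0 elsewhere. Gpx1-201 stood at 941 to 1145 FPKM with vehicle and 163 to 253 FPKM with the early course (log2 change -2.31, adjusted p = 0.00192), and Gpx1-202 fell as well (log2 change -3.42, adjusted p = 0.016). A further transcript, Gpx1-204, was listed at 0 in all 11 of the 24 libraries that were at the high Gpx1 level and at 0.674 to 3.54 FPKM in all 13 at the low level. The remaining called transcripts were Dsel-201, Pnkd-203, Cdc42bpa-203, Trim23-201 and Mtbp-204, which rose, and Jade1-202, which fell. Each of these was also under 1 FPKM in every library of 1 group and met the filter only through the other group. Other genes share bases with some of these loci in the reference annotation. None does for Dsel, Gpx1, Nsun4 or Rlf, while noncoding genes lie within Fbxl17 (5) and Pfkfb3 (2, of which 1 is on the opposite strand). The part of transcript assignment in the gene-level calls was not tested.

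**Figure D3:**
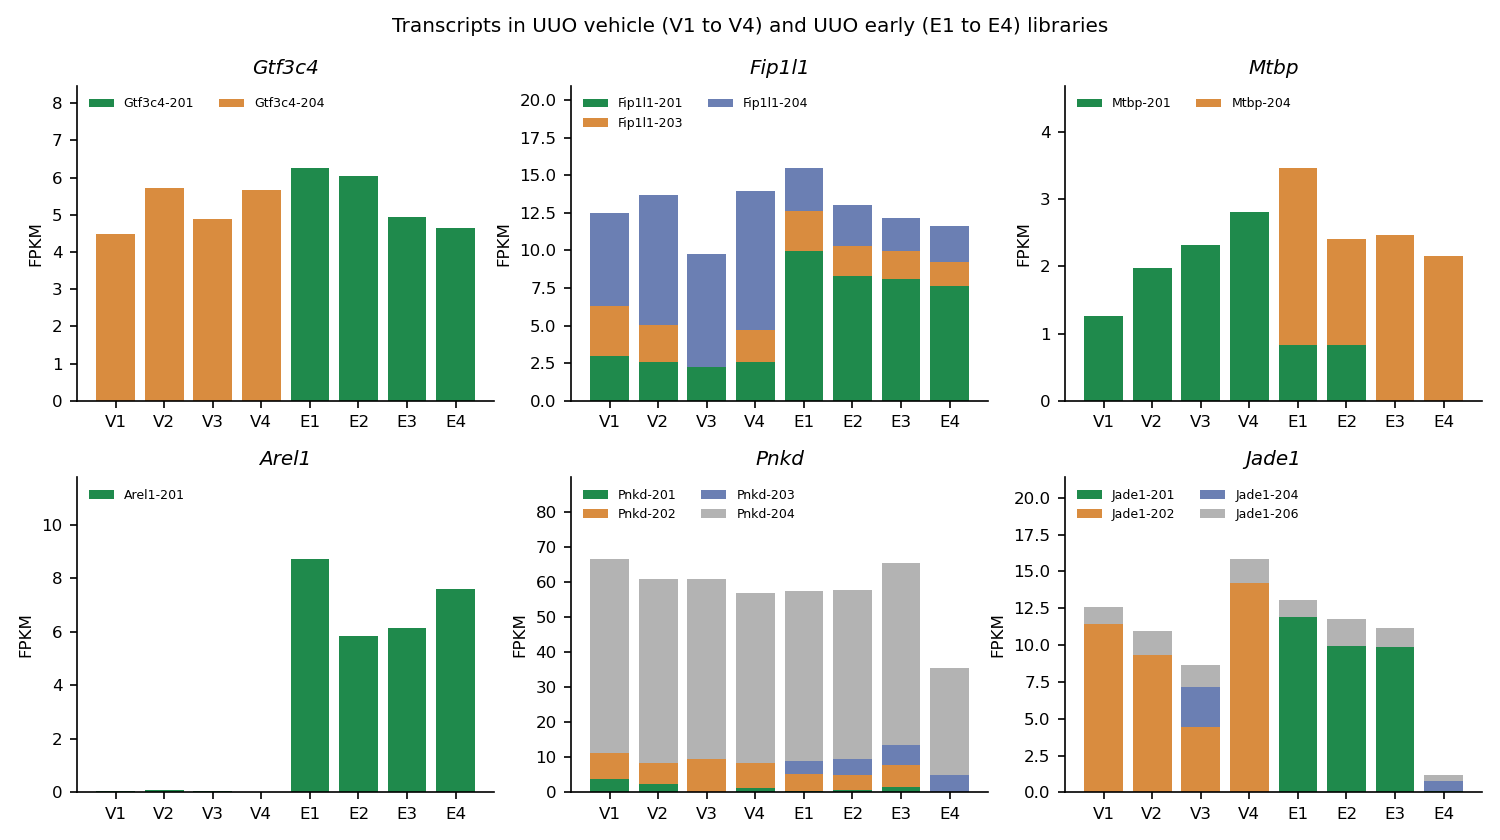
Stacked FPKM of the protein-coding transcripts of 6 genes with a called transcript, in UUO vehicle (V1 to V4) and UUO early (E1 to E4) libraries, each bar 1 library and each colour 1 transcript. Gtf3c4-204 fills the vehicle bars and Gtf3c4-201 the early bars at a like total. Arel1-201, the only Arel1 transcript listed, is at most 0.0996 FPKM in the vehicle bars and at least 5.83 FPKM in the early bars. The Arel1 vehicle bars are thus far below the gene level of 6.13 to 7.53 FPKM.

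Clock genes formed the list with the most members that were apart between the groups. Of 21 clock genes, all tested, none passed the threshold (limma, smallest adjusted p = 0.403) and 8 had an unadjusted p under 0.05, all higher with the early course. Values were higher for 18 and lower for 3, with a median log2 change of 0.31, against a median of 0.00 over all genes. UUO early and UUO vehicle libraries did not overlap for 7 members, all higher, where 1.86% of all genes tested had that pattern. Without UUO early 4 values were higher for 14 and lower for 7, with a median of 0.35. Then 9 members were higher and 2 lower without overlap, where 4% and 2.38% of all genes had these patterns.

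Among the repressors of the clock loop, Per2 stood at 2.23, 2.84, 2.26 and 2.84 FPKM with vehicle and at 5.86, 4.79, 5.42 and 4.02 FPKM with the early course (log2 change 0.76, 95% interval 0.47 to 1.06, adjusted p = 0.403). Per3, a paralogue, stood at 2.32, 3.12, 2.12 and 3.87 FPKM and at 7.07, 4.48, 4.35 and 4.22 FPKM in the same order (log2 change 0.64, adjusted p = 0.939). Cry1, which encodes a cryptochrome repressor, stood at 1.48, 1.93, 1.62 and 1.96 FPKM and at 3.93, 2.03, 2.64 and 4.88 FPKM (log2 change 0.63). Every early library was above every vehicle library for these genes and for Cry2 (log2 change 0.31). Per1 overlapped between the groups (log2 change 0.21, 95% interval -0.26 to 0.68).

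Nr1d2, a nuclear receptor that represses Arntl, stood at 17.4, 18.0, 16.3 and 20.1 FPKM with vehicle and at 28.8, 23.8, 22.5 and 25.7 FPKM with the early course (log2 change 0.47). The groups did not overlap. Nr1d1, its paralogue, did overlap, at 17.6 to 24.9 FPKM with vehicle and at 16.2 to 34.5 FPKM with the early course (log2 change 0.10, 95% interval -0.40 to 0.60). Nfil3, Rora and Bhlhe40 overlapped as well, with log2 changes of 0.03, 0.04 and 0.06. Dbp, a transcription factor that carries the rhythm to output genes, stood at 19.2, 27.2, 22.2 and 32.9 FPKM with vehicle and at 51.3, 53.3, 44.8 and 33.8 FPKM with the early course (log2 change 0.83, 95% interval 0.38 to 1.29, adjusted p = 0.939). UUO early 4 was the lowest early library for Per2, Per3 and Dbp. Values lay lower for 2 members of the activating arm, Arntl (log2 change -0.36, 95% interval -0.78 to 0.05) and Npas2 (log2 change -0.29), both with overlap.

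In other groups the clock list gave these values. UUO late kidneys had a Per2 mean of 4.97 FPKM and a Dbp mean of 52.2 FPKM, and of the 20 members tested in UUO early against UUO late none passed the threshold (smallest adjusted p = 0.925), with a median log2 difference of -0.06. In sham kidneys, early against vehicle, the median over 17 members was 0.14, with 14 higher, 3 lower and 1 without overlap, where 1.97% of all genes lay higher without overlap. The difference between the surgeries did not pass the threshold for any clock gene (smallest adjusted p = 0.895). Clock RNAs cycle over the day, the labels give no hour of collection, and the part of collection time in these values was not tested.

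**Figure D4:**
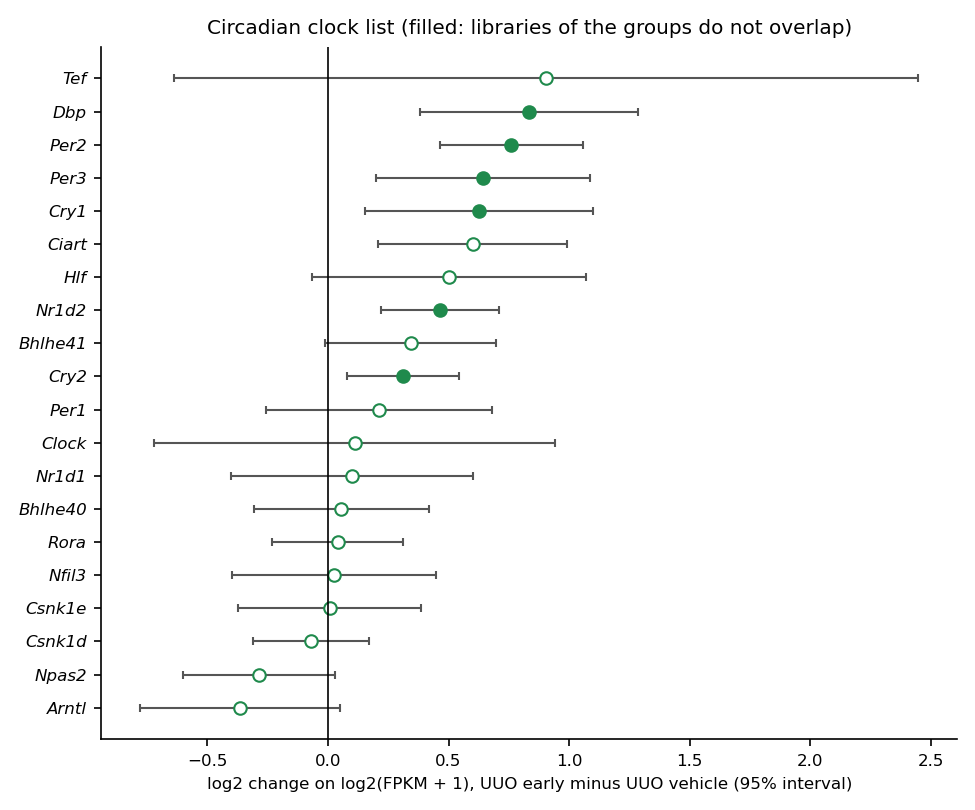
Log2 change of 20 clock genes, UUO early minus UUO vehicle, with 95% intervals from the limma fit, filled where the libraries of the groups do not overlap. The 6 filled points lie between 0.31 (Cry2) and 0.83 (Dbp), Arntl, Npas2 and Csnk1d lie below 0, and Clock lies at 0.11.

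Promoters of 3 clock genes are shown because they hold the letters to which the loop's factors bind. The E-box CACGTG is bound by ARNTL with CLOCK, and the D-box TTANGTAA by DBP and its relatives. They were searched in 300 bases around each gene start in RefSeq (GRCm38.p6), on both strands, with the genes shown chosen after the search. Capitals mark the matches, each sequence runs 5′ to 3′ along its gene, and all 3 genes lie on the minus strand.
Ciart promoter, chr3:95882179-95882478: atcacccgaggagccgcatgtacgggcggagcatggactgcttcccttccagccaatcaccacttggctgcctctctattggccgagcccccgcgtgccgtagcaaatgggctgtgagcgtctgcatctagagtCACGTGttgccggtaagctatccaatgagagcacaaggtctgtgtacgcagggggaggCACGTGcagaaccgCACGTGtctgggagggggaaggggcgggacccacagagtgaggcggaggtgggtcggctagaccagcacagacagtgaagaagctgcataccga
Cry1 promoter, chr10:85185005-85185304: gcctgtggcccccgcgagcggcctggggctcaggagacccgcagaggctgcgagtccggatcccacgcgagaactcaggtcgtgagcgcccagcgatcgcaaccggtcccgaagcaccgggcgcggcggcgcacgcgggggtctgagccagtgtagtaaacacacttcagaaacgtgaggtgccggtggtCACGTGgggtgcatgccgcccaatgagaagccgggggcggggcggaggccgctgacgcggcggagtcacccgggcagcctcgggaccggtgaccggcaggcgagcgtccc
Per3 promoter, chr4:151044616-151044915: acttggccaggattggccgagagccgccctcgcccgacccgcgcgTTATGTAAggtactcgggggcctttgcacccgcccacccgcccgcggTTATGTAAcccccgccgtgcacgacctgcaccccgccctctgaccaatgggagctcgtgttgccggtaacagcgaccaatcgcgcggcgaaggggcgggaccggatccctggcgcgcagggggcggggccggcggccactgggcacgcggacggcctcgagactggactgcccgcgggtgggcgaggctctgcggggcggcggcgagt

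Ciart, a repressor of the clock, has 3 E-boxes in this window, Cry1 has 1 and Per3 has 2 D-boxes. Promoters were found for 17 of the 21 clock genes. At least 1 E-box was in 5 of them (29.41%), against 11.65% of the 9812 tested genes with a promoter. The 5 were Bhlhe41, Ciart, Cry1, Per1 and Tef, and only Cry1 of them was without overlap between the groups. Cry2, Dbp, Nr1d2 and Per3, also without overlap, had no E-box in this window. A D-box was in 1 of the 17 (5.88%), against 1.85%. The cyclic AMP element TGACGTCA, which cyclic AMP signals reach through CREB, was in 1 (5.88%), against 3.4%. A match is a description of the sequence and not a measured binding site.

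Adipocyte genes gave the largest list median after the 3 tested muscle genes. All 7 tested members of the list were higher with the early course, with a median log2 change of 1.68 (1.74 without UUO early 4). None passed the threshold (limma, smallest adjusted p = 0.939), and 5 had an unadjusted p under 0.05. Plin1 and Retn met the filter through the early libraries, since only UUO vehicle 3 reached 1 FPKM with vehicle. Plin4 and Ucp1 were too low to be tested. Plin4 stood at 0.419 to 0.959 FPKM with vehicle, at 0.244 to 0.687 FPKM in UUO early 1 to 3 and at 4.07 FPKM in UUO early 4. Ucp1 stood at 0 to 1.01 FPKM with vehicle and at 0 to 0.419 FPKM with the early course. Adipoq, the fat cell hormone adiponectin, stood at 2.81, 1.20, 19.2 and 1.32 FPKM with vehicle and at 19.3, 9.65, 14.5 and 16.9 FPKM with the early course (log2 change 1.81, 95% interval 0.30 to 3.33). Retn, the hormone resistin, was the only member without overlap, at 0.122 to 6.88 FPKM with vehicle and at 7.13 to 12.6 FPKM with the early course (log2 change 2.13, 95% interval 0.87 to 3.39). UUO vehicle 3 was the high vehicle library for both, and without it Retn (log2 change 2.73) and Adipoq (2.54) passed the threshold. Leaving out the highest library of the lower group enlarges the change by construction, so these calls are no support for a difference. The list sum also differed among libraries of other groups. It was 392 FPKM in 1 sham early library and 15.8 to 25.1 FPKM in the other 3. The share of fat tissue around the kidney in each sample was not measured.

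Fibrosis and injury genes, the readouts the obstruction model is used for, had no member past the threshold. Of 32 matrix genes 20 were higher and 12 lower, with a median log2 change of 0.15, and without UUO early 4 there were 29 higher and 3 lower, with a median of 0.10. With all libraries none had an unadjusted p under 0.05. Col1a1, the main chain of scar collagen, stood at 86.1, 168, 128 and 148 FPKM with vehicle and at 260, 117, 78.5 and 240 FPKM with the early course (log2 change 0.27, 95% interval -0.65 to 1.18). The groups overlapped in full, and the interval holds changes in either direction of over 0.6 log2 units. The log2 change of Fn1, fibronectin, was 0.07 (95% interval -0.84 to 0.97), and that of Acta2, the actin of myofibroblasts, was -0.26 (SE 0.32). Timp1, an inhibitor of matrix proteases, had a log2 change of -0.35 (-0.85 to 0.16).

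Of the 21 tested injury genes 12 were higher and 9 lower, with a median of 0.05, and without UUO early 4 there were 10 higher and 11 lower, with a median of -0.01. Havcr1, the injury receptor KIM-1 of proximal tubules, stood at 370, 339, 309 and 195 FPKM with vehicle and at 209, 237, 208 and 98.9 FPKM with the early course. Its log2 change was -0.72 (95% interval -1.42 to -0.02, unadjusted p = 0.0456, adjusted p = 0.939), and -0.44 without UUO early 4, which was the lowest library. It was the only injury gene with an unadjusted p under 0.05. Lcn2, a tubule and neutrophil protein, stood at 112 to 261 FPKM with vehicle and at 249, 168, 145 and 674 FPKM with the early course, where 674 FPKM is UUO early 4 (log2 change 0.70, and 0.23 without it).

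Macrophage and cytokine lists moved with UUO early 4. Of 25 macrophage genes 24 were higher, with a median log2 change of 0.33, which was 0.09 without that library, when 18 were higher and 7 lower. None passed the threshold and 2 had an unadjusted p under 0.05. Of 25 cytokine and chemokine genes 20 were higher with all libraries, and 18 were lower without UUO early 4, the median going from 0.24 to -0.10. The NF-kB and inflammasome list went from a median of 0.11 to -0.10. Il1b, a cytokine of activated myeloid cells, stood at 9.88, 7.75 and 5.63 FPKM in UUO early 1 to 3, at 102 FPKM in UUO early 4 and at 8.13 to 11.1 FPKM with vehicle. Neither the cytokine nor the NF-kB list had a member past the threshold or with an unadjusted p under 0.05. Lymphocyte and dendritic cell lists lay lower with and without UUO early 4, with no member past the threshold or with an unadjusted p under 0.05. Their medians were -0.12 and -0.35 for 10 T and NK cell genes, -0.56 and -0.77 for 3 B and plasma cell genes, and -0.08 and -0.06 for 8 dendritic cell genes. UUO vehicle 3 was far above the other vehicle libraries for both lymphocyte lists. The T and NK cell list summed to 132 FPKM there, to 35.5 to 58.6 FPKM in the others and to 39.6 to 81.7 FPKM with the early course. For the B and plasma cell list these sums were 141, 6.27 to 29.3 and 9.83 to 19.1 FPKM.

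Among tubule segments, the proximal tubule list turned with the same library, as the plot of list medians shows. The 33 proximal tubule genes had 30 lower and 3 higher, with a median of -0.32, and without UUO early 4 there were 30 higher and 3 lower, with a median of 0.16. Slc34a1, the sodium phosphate carrier of the proximal tubule, stood at 395, 189, 247 and 234 FPKM with vehicle and at 183, 261, 396 and 44.1 FPKM with the early course (log2 change -0.59, and 0.05 without UUO early 4). Loop and collecting duct genes lay higher with and without it. The 10 loop of Henle genes had a median of 0.17 (0.36 without) and the 10 tested principal cell genes of 0.29 (0.60 without). Slc12a1, the sodium, potassium and chloride carrier of the thick ascending limb, stood at 26.7, 29.1, 12.8 and 29.5 FPKM with vehicle and at 46.2, 34.6, 49.3 and 34.8 FPKM with the early course (log2 change 0.78, 95% interval 0.17 to 1.39, adjusted p = 0.939), without overlap. Umod, the loop protein uromodulin, was at 277 to 419 FPKM with vehicle, at 444 to 651 FPKM in UUO early 1 to 3 and at 229 FPKM in UUO early 4. No member of these 3 lists passed the threshold, and 0, 1 and 1 of them had an unadjusted p under 0.05.

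**Figure D5:**
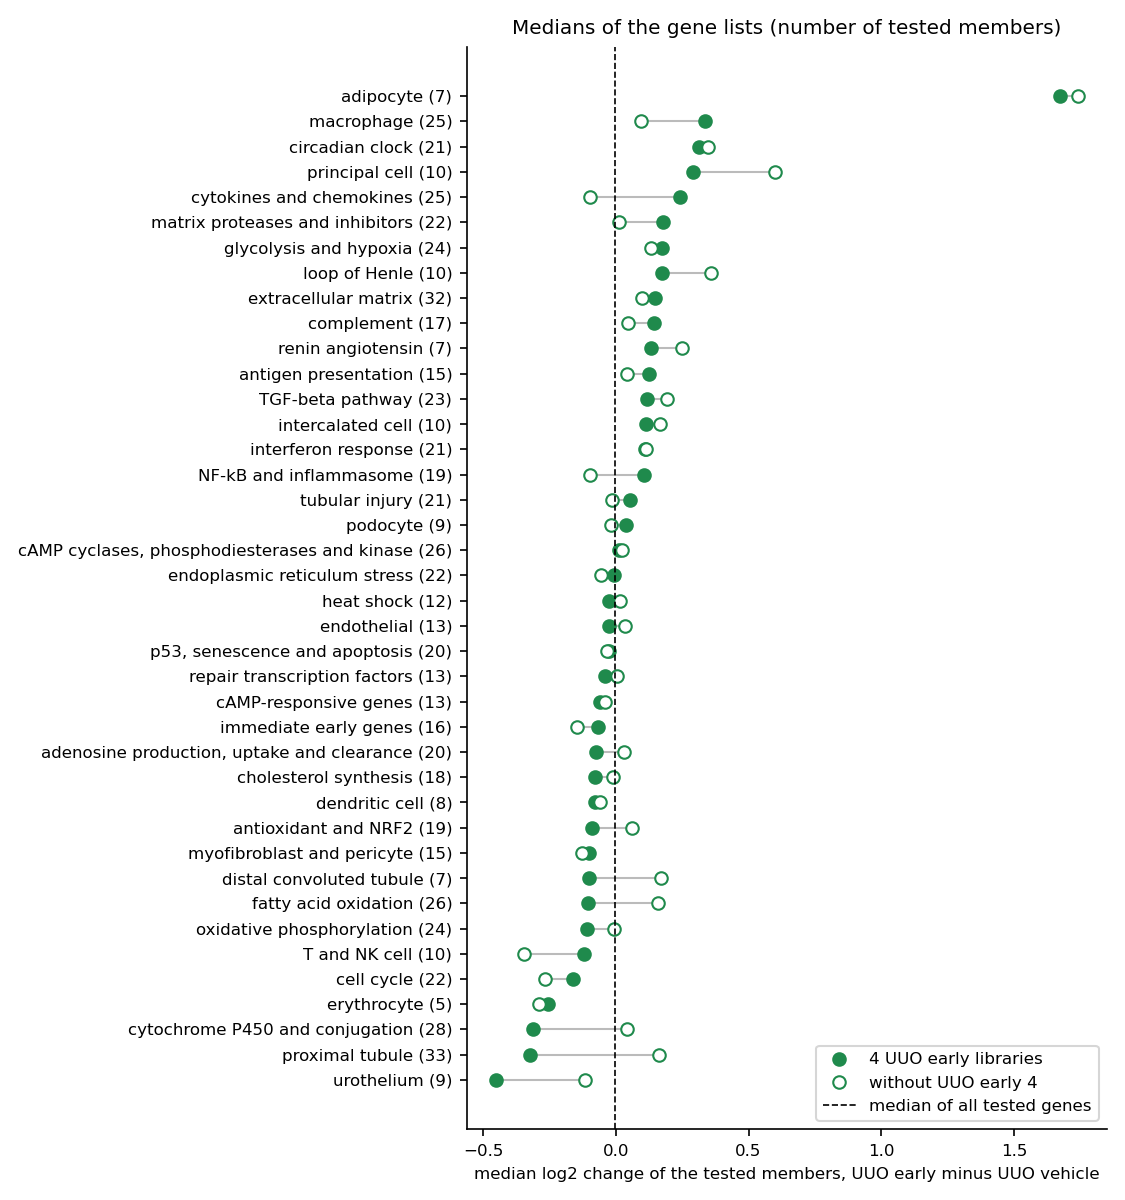
Median log2 change, UUO early minus UUO vehicle, of the tested members of each gene list (number in brackets), with all 4 UUO early libraries (filled) and without UUO early 4 (open); lists with fewer than 5 tested members are left out. The proximal tubule median goes from -0.32 to 0.16 and the cytokine median from 0.24 to -0.10, while the adipocyte median stays at 1.68 and 1.74 and the clock median at 0.31 and 0.35.

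Genes of adenosine signalling lay close between the groups. Adora2a, the target of the drug, stood at 3.06, 3.36, 3.70 and 4.31 FPKM with vehicle and at 3.66, 3.99, 2.87 and 3.44 FPKM with the early course (log2 change -0.04, 95% interval -0.32 to 0.25, adjusted p = 0.975). A blocked receptor need not change its own RNA, so this value is no check of the treatment. Adora2b, its low-affinity relative, had a log2 change of 0.32 (95% interval -0.21 to 0.86) and Adora1 one of 0.21 (-0.36 to 0.78). Of 20 genes of adenosine production, uptake and clearance 5 were higher and 15 lower, with a median of -0.08, while without UUO early 4 there were 11 higher and 9 lower, with a median of 0.03. With all libraries none passed the threshold and 1, lower, had an unadjusted p under 0.05. The 13 tested cyclic AMP-responsive genes had a median of -0.06, with none at an unadjusted p under 0.05.

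Further genes were named by the order of their unadjusted p among genes of at least 5 FPKM without overlap, and none of them passed the threshold. Higher with the early course were Crlf2, the receptor chain for thymic stromal lymphopoietin, at 8.97 to 11.8 FPKM with vehicle and 15.0 to 17.7 FPKM with the early course (log2 change 0.69, adjusted p = 0.305), and Tspan12, a tetraspanin of Norrin signalling, at 6.31 to 7.29 and 9.21 to 11.4 FPKM (log2 change 0.55, adjusted p = 0.465). Nampt, the rate-limiting enzyme of NAD salvage, was at 16.7 to 20.4 and 24.2 to 26.6 FPKM (log2 change 0.46), and Glul, glutamine synthetase, at 91.0 to 97.3 and 117 to 143 FPKM (log2 change 0.41). Besides these and the clock genes Per2 and Nr1d2, the rule named Tmem30b, Rcbtb1, Ube2d3, Lilra5 and Manea, with log2 changes of 0.35 to 0.73.

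Lower with the early course were Zfp317 at 5.91 to 8.19 and 1.99 to 3.75 FPKM (log2 change -1.10, adjusted p = 0.198) and Usp48, a ubiquitin protease, at 6.17 to 8.90 and 3.05 to 4.53 FPKM (log2 change -0.82, adjusted p = 0.403). Fen1 and Gins1, which act at the DNA replication fork, were at 8.09 to 9.45 and 4.16 to 6.42 FPKM, and at 4.55 to 5.63 and 3.02 to 3.45 FPKM (log2 changes -0.65 and -0.50). Colgalt1, a collagen galactosyltransferase, was at 14.0 to 36.9 and 7.34 to 11.1 FPKM (log2 change -1.30, adjusted p = 0.716). Cyp4f16, Homer3, Polr2h, Mrpl52 and Mrpl30 had log2 changes between -0.87 and -0.33. The cell cycle list lay on the same side as Fen1 and Gins1. Of 22 tested members 20 were lower and 2 higher, with a median of -0.16, and without UUO early 4 all 22 were lower, with a median of -0.27 and 3 without overlap, where 2.38% of all genes lay lower without overlap. None passed the threshold or had an unadjusted p under 0.05 with all libraries.

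The early course was also set against the other groups. In sham kidneys 8 of 10882 genes passed for early against vehicle (0.0735%), and none of them was among the 6. Of the 8, the 5 with the smallest p were the zinc finger gene Zfp422 (log2 change -2.13) and Dctn5, a dynactin subunit (-1.31), which fell, and the Golgi protein gene Golm1 (1.39), Micu3, a regulator of mitochondrial calcium uptake (1.09), and Atp4a, a proton pump subunit (0.85), which rose. Dsel and Pfkfb3 were too low in sham kidneys to be tested there, and Gpx1 (-0.90, adjusted p = 0.457), Fbxl17 (0.50), Rlf (0.33) and Nsun4 (0.17) did not pass. The test of the difference between the surgeries called 2 of 12881 genes (0.0155%). Dsel changed more in obstructed than in sham kidneys (difference 2.33, SE 0.14, adjusted p = 1.2e-06), its sham levels being 0.326 to 0.560 FPKM with vehicle and 0.214 to 0.304 FPKM with the early course. Micu3 went the other way (difference -0.98, SE 0.12, adjusted p = 0.00777), with 0.637 to 0.920 FPKM in sham vehicle, 2.35 to 3.17 FPKM in sham early, 0.515 to 0.649 FPKM in UUO vehicle and 0.640 to 0.813 FPKM in UUO early.

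Against the late course in obstructed kidneys, 3 of 12696 genes passed (0.0236%), all lower in UUO early. Micu3 was at 0.640 to 0.813 FPKM in UUO early and at 2.46 to 3.25 FPKM in UUO late (log2 difference -1.12, SE 0.10, adjusted p = 0.0225). The histone genes Hist1h2ao (-1.19) and Hist1h2ap (-1.25) have near-identical copies, so reads could be split among them and their values are uncertain. Pfkfb3 was next (1.73, SE 0.19, adjusted p = 0.0525), at 0.288 to 1.17 FPKM in UUO late. Rlf was too low to be tested there, and the remaining called genes of the main comparison overlapped between the courses, with log2 differences of 0.49 for Dsel, -1.44 for Gpx1, -0.54 for Fbxl17 and 0.28 for Nsun4.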

How the data were processed

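The deposited values are FPKM of genes and of transcripts with a column for every library, per the file headers. Columns were matched to the labels by their names, and vehicle libraries carry the number in the column name. Libraries were made from Trizol extracts with a stranded kit, per the labels' protocols, and the submitters' processing notes name cutadapt, HISAT2, StringTie and GRCm38, with versions not given in the sources used here. The gene table holds 14407 protein-coding genes, 14401 of them with an ID in GENCODE M21, and 27011 transcripts were listed. An emptied line was not used here, and the values of 1 clock gene, which is kept in the counts and medians of its list, are not reported here. Read counts were not used here, and depth is an estimate.

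Genes with at least 1 FPKM in at least 4 of the libraries fitted were tested on log2(FPKM + 1), a pseudocount of 1, by limma 3.58.1 in R 4.3.3, with 1 mean per group, a mean-variance trend, two-sided, Benjamini-Hochberg adjustment over all genes tested and a threshold of 0.05. The main fit held 8 libraries and 6 residual degrees of freedom. The same fit was applied to transcripts, to sham early against sham vehicle, to the interaction (16 libraries) and to UUO early against UUO late, and it was tested on simulated data. Where a symbol had more than 1 row, the row with the higher mean was used. Named were all called genes, genes added in order of unadjusted p up to 12 in each direction whose mean reached 5 FPKM in the higher group without overlap, up to 4 members per list described, a fixed set of genes, and the 5 smallest p of other comparisons. The members and lists were chosen with earlier results of these data known. Libraries were not paired by replicate number in the main fit. The 2-level gap, the panel of muscle and neutrophil genes, the motifs and the runs of lists without UUO early 4 were chosen after values were seen.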

Additional observations from a re-analysis of the deposited data

Results flagged for a closer look

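Of 64 genes looked at in both groups, 128 gene and group pairs, 8 had a library far from the other 3 of its group, and 6 of the 8 were in UUO early 4. Chance flags about 1 in 20 groups. In UUO early 4, Pvalb, a calcium buffer of fast muscle and of the distal convoluted tubule, stood at 724 FPKM (0.148 to 35.6 FPKM in the other 3), the macrophage and neutrophil lysozyme Lyz2 at 2263 FPKM (750 to 784 FPKM), Il1b at 102 FPKM (5.63 to 9.88 FPKM), Tnf at 13.9 FPKM (2.05 to 2.49 FPKM), the inflammasome sensor Nlrp3 at 5.13 FPKM (0.737 to 0.878 FPKM) and osteopontin, Spp1, at 3595 FPKM (4596 to 4687 FPKM). UUO vehicle 1 was low for Tnf at 1.85 FPKM (3.07 to 3.19 FPKM), and UUO early 2 was high for Rlf at 0.652 FPKM (0.0437 to 0.0785 FPKM). The change with the early course differed between obstructed and sham kidneys for Dsel (2.33 log2 units) and Micu3 (-0.98 log2 units), by the test of the difference itself.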

How the results depend on the processing

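The 6 calls became 3 with a pseudocount of 0.1 or of 0.5, 1 with a filter at 5 FPKM, 2 with 12 or with 24 libraries in the fit, and 0 with a replicate block. Leaving out 1 library gave 2 to 10 calls, with 2 without UUO vehicle 1 or 4 or UUO early 1 or 3, 3 without UUO early 2 and 10 without UUO vehicle 2. These fits kept the genes tested, which was set after it was seen that Dsel and Pfkfb3 otherwise leave the filter when an early library is removed. The 12 transcripts became 1 with the 5 FPKM filter, 0 with the replicate block and 12 to 43 on leaving out a library, with 43 without UUO vehicle 2 and 27 without UUO vehicle 3. The 8 sham calls became 4 with the 5 FPKM filter, 1 with the replicate block and 5 to 9 on leaving out a library, with 5 without sham early 2. The 2 interaction calls became 1 with a pseudocount of 0.1, 0 with the 5 FPKM filter, 1 with the replicate block and 2 to 4 on leaving out a library, with 4 without UUO vehicle 3. The 3 calls against UUO late became 5 with equal library sums, 11 with library weights, 0 with the replicate block and 0 to 9 on leaving out a library, with 0 without UUO early 2 or 3 or UUO late 2 or 3, 1 without UUO early 1 or UUO late 1 and 9 without UUO late 4. The cause of these shifts was not tested. Same-numbered libraries correlated at -0.108, -0.020, 0.037 and 0.027, within the -0.212 to 0.213 of differently numbered libraries. These few values show no pairing by number but cannot exclude one. Scaling by median ratios or equal sums, no filter, no trend and a robust fit left the 6 calls at 5 or 6. No called gene changed direction in any alternative. Of 217 named genes that did not pass, 26 changed sign somewhere (47 of 4286 values), and 3 passed in 1 alternative each (Zfp317 with 12 libraries, Retn and Adipoq without UUO vehicle 3). Depth is an estimate, so counting error was not separated from the spread between libraries.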

Other observations

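Genes of glycolysis and oxygen sensing lay slightly higher with the early course. Of 24 tested members 20 were higher and 4 lower, with a median log2 change of 0.17 (0.13 without UUO early 4), and 4 did not overlap between the groups, where 1.86% of all genes tested lay higher without overlap. None passed the threshold by limma and 2 had an unadjusted p under 0.05. Pdk1, a kinase that holds pyruvate back from mitochondria, stood at 3.93, 3.22, 3.47 and 3.19 FPKM with vehicle and at 4.36, 5.39, 4.70 and 5.25 FPKM with the early course (log2 change 0.41, 95% interval 0.18 to 0.65). Slc2a1, a glucose carrier, was at 13.6 to 15.1 and 16.2 to 18.2 FPKM (log2 change 0.23). Hif1a, the oxygen-regulated transcription factor, was at 14.3 to 16.5 FPKM with vehicle, at 17.4 to 22.1 FPKM in UUO early 1 to 3 and at 71.9 FPKM in UUO early 4, and the muscle isoform of phosphofructokinase, Pfkm, was at 90.7 FPKM in that library and at 11.3 to 15.0 FPKM in the other 3.

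The oxidative phosphorylation list had 22 of 24 members lower, with a median of -0.11, which was -0.01 without UUO early 4, when 12 were higher and 12 lower. Ndufa2, a complex I subunit, was without overlap at 297 to 400 FPKM with vehicle and 243 to 286 FPKM with the early course (log2 change -0.38, adjusted p = 0.939). Fatty acid oxidation had a median of -0.11 over 26 genes, and 0.16 without UUO early 4. Aqp4, a water channel of principal cells, was at 1.00 to 1.73 FPKM with vehicle and at 4.81, 2.16, 5.43 and 24.9 FPKM with the early course (log2 change 1.62, and 1.02 without UUO early 4, adjusted p = 0.939). The 24.9 FPKM is UUO early 4, where the principal cell list summed to 125 FPKM, against 181 to 257 FPKM in UUO early 1 to 3. The skeletal muscle list summed to 5058 FPKM in that library, and the source of its Aqp4 RNA was not tested. Hspa1b, an inducible heat shock protein 70, was at 13.3 to 21.0 and 21.2 to 39.8 FPKM (log2 change 0.67).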
